A study of Xenopus tropicalis with 18 samples.

Results

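Genes that belonged to head with pharynx in control Xenopus tropicalis embryos, and that were found in foregut explants after treatment with BMS493, are described here over all 18 libraries of the study. The 81 genes were chosen by measured values, namely CPM (the count of a gene scaled to a common library total) averaged over the 3 libraries of a group. Each had at least 5 CPM in head with pharynx, at least 8 times the level of control foregut and of control hindgut there, and a BMS493 foregut level of at least 50% of the head with pharynx level. Of the 28863 identifiers measured, 259 met the limits on region and 81 of these also met the limit on BMS493. The values in head with pharynx, control foregut, control hindgut and BMS493 foregut that chose the genes are therefore given as a description, without a test.

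Retinoic acid is a vitamin A derivative that is made mainly in trunk mesoderm, broken down by Cyp26 enzymes in the head, and bound by nuclear receptors that act as transcription factors. BMS493 is an inverse agonist of these receptors, which strengthens their hold on corepressors, and vertebrate embryos deprived of retinoic acid are known for defects of the posterior pharynx, the foregut organs and the hindbrain. Cyclopamine blocks Smoothened, the membrane protein that passes on the Hedgehog signal. Rfx6 is a transcription factor of gut endoderm that is needed for endocrine pancreas cells in mouse and human. The head with pharynx explant covers tissue in which cranial neural crest, pharyngeal pouches and head mesoderm are known to lie.

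All embryos were wild type, of the Nigerian stock, and were dissected at Nieuwkoop and Faber stage 33 into explants of mesoderm with endoderm, 8 explants to a library. Head with pharynx and hindgut controls received 0.1% DMSO. Foregut controls received 0.1% DMSO together with a mismatch morpholino oligo, 1 ng in all as 500 pg in each cell at the 2-cell stage, and the Rfx6 group 0.1% DMSO with the same amount of an Rfx6 morpholino. The drug groups received 40 µM cyclopamine or 100 nM BMS493 from stage 15 to stage 33, and their labels name no DMSO or morpholino, so drug, vehicle and injection cannot be told apart in a comparison of a drug group with control foregut or with the Rfx6 group. The labels of the head with pharynx and hindgut controls name no morpholino. Region and injection therefore cannot be told apart where these controls are set against control foregut or the Rfx6 group. There were 3 libraries in each of 6 groups. The labels do not say whether the pools of a group shared a clutch, so the p-values cover the spread between these libraries, which may be technical.

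Libraries held 26006163 to 96814679 counts, so 1 CPM stood for at least 26.0 counts. Replicates 1 and 2 of each treated group lay close to each other by the median over genes. Their median squared difference was between 2.48 and 2.77 times that of counting noise. All other pairs of a group lay between 4.63 and 13.7 times. The mean squared difference over genes gave another order. It was 59.9 times for that Rfx6 morpholino pair, 32.3 for cyclopamine and 3.22 for BMS493, against 8.98 to 56.9 for the other pairs. Replicate 3 of BMS493 and replicate 3 of the Rfx6 morpholino group stood apart, and results that rest on them are given with and without them. The files name genes by identifiers only, and the reference table at hand matched 0 of them, so the labelled tissues could not be checked against marker genes, and no gene list by symbol could be used. Except for 2 identifiers, genes are named here by their rank, 1 to 81, in mean CPM in BMS493 foregut.

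In control tissue the genes were expressed over a wide range in head with pharynx. Their group means lay between 5.41 and 429 CPM there, with a median of 17.8 CPM. In control foregut the median was 0.776 CPM and in control hindgut 0.319 CPM. Together the 81 genes held 0.297, 0.294 and 0.293% of all counts in the 3 head with pharynx libraries. They held 0.0167, 0.0164 and 0.0181% in the control foregut libraries and 0.00888, 0.00813 and 0.0083% in the control hindgut libraries.

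The genes were low rather than silent in control foregut. There 45 genes were under 1 CPM, 27 lay from 1 to 5 CPM, and 9 were at 5 CPM or more. No counts at all were seen in the 3 control foregut libraries for 4 genes, and no counts in the 3 control hindgut libraries for 4 genes. A count of 0 over control foregut allows a level of up to 0.0281 CPM, which covers counting error only. Mean levels were higher in control foregut than in control hindgut for 63 of the 81 genes. The word "on" in the sense of absent before and present after therefore applies to a few of these genes, and the others had a low level in control foregut already.

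**Figure D1:**
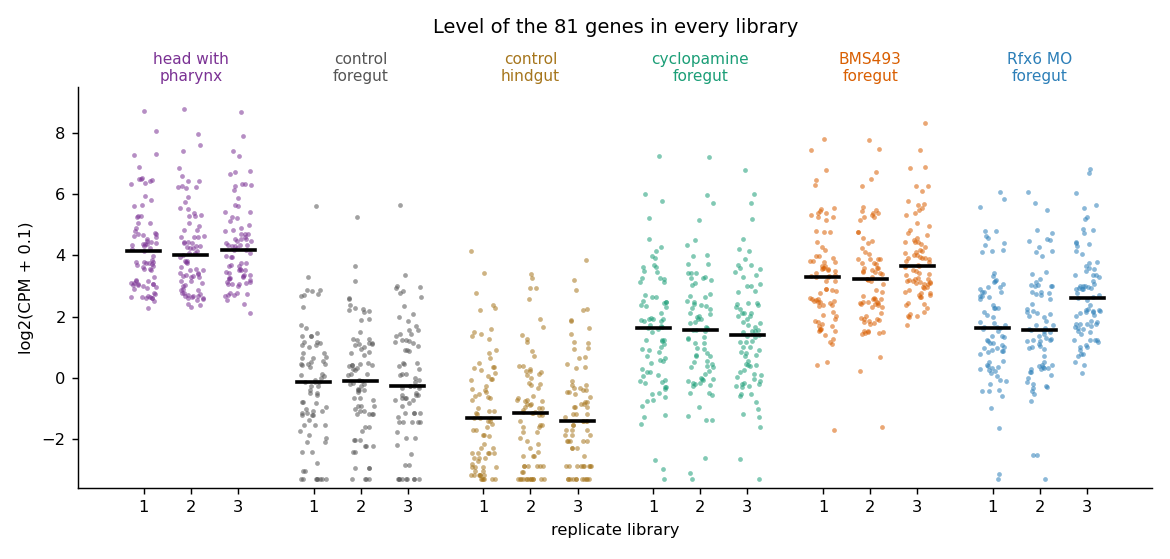
Level of the 81 genes, as log2(CPM + 0.1), in each of the 18 libraries, with replicates 1 to 3 side by side in each group (MO, morpholino). A point is a gene and the black line the median of a library, which lay between 4.02 and 4.18 in head with pharynx, between -0.27 and -0.12 in control foregut, and at 3.28, 3.22 and 3.66 in BMS493 foregut.

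In BMS493 foregut the genes stood between the levels of control foregut and head with pharynx. They held 0.163, 0.162 and 0.212% of all counts in replicates 1, 2 and 3, a mean of 0.179% ± 0.0284 (SD, n = 3) against 0.295% ± 0.00218 (SD, n = 3) in head with pharynx. The median gene reached 51.5, 51.0 and 72.1% of its mean level in head with pharynx in these libraries. By group means the share ran from 50.1 to 94.5%, with a median of 57.3%. It was under 60% for 51 of the 81 genes and at 75% or more for 6. In bulk explants, fewer cells that express a gene and less RNA per cell cannot be told apart.

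The limit of 50% cut a continuous range between its median and its upper quartile. Among all 259 genes that met the limits on region, the BMS493 share had quartiles of 39.1, 43.4 and 52.6%, and 147 of them lay from 40 to 60%. The lowest shares inside the limit were 50.1 and 50.2%, and the highest outside were 49.7 and 49.97%. For the limit on control foregut, the head with pharynx level was 8.00 and 8.25 times higher for the genes just inside and 7.74 and 7.78 times for those just outside. For hindgut these values were 8.16 and 8.33 times inside and 6.79 and 7.28 times outside. For the minimum level in head with pharynx they were 5.41 and 5.52 CPM inside and 4.76 and 4.88 CPM outside.

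Replicate 3 of BMS493 decided the membership of 38 of the 81 genes. Without it 43 genes met the rule, all of them among the 81. Without replicate 1 or replicate 2, 160 and 163 genes met it. Replicate 3 lay above both other BMS493 libraries for 71 genes, below both for 4 and between them for 6. Its level was a median of 1.32 times the mean of replicates 1 and 2, which differed from each other by a median of 2.67 percentage points of the head with pharynx level. All 81 genes were at 50% or more in replicate 3, against 44 in replicate 1 and 48 in replicate 2.

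The left-out BMS493 library had no part in the limit on BMS493, though the limits on region and the head with pharynx mean stayed the same. Replicates 1 and 2 lay close to each other, so a reading in either was near to one that the choice had used. The 43 genes chosen without replicate 3 had a median of 71.8% of the head with pharynx level in replicate 3, with a range from 53.4 to 105%, and all 43 were at 50% or more there. The 216 other genes that met the limits on region had a median of 72.9% in that library, and 198 of them were at 50% or more, so the reading does not set the 43 genes apart. Of the 160 genes chosen without replicate 1, 44 were at 50% or more in replicate 1, with a median of 36.4%, against 0 of the 99 others and 26.9%. Of the 163 chosen without replicate 2, 48 were at 50% or more in replicate 2, with a median of 37.5%, against 0 of the 96 others and 26.2%. The 43 genes that did not depend on replicate 3 are called the core below.

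**Figure D2:**
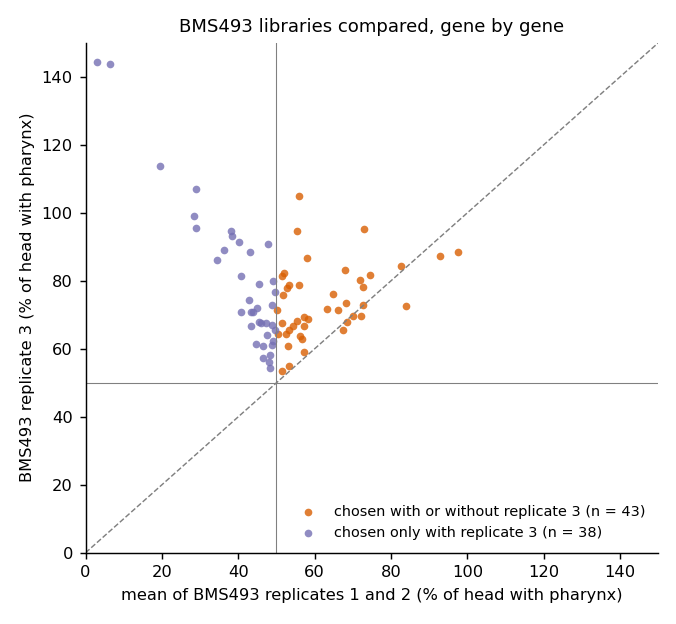
Level of each gene in BMS493 replicate 3 against the mean of replicates 1 and 2, both as a percentage of its mean head with pharynx level. Thin lines mark 50% and the dashed line equal levels; the 43 core genes lie right of 50% on the horizontal axis, the other 38 left of it, and most points lie above the dashed line.

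The most abundant gene of the group, XBXT10g003209, had 427, 446 and 413 CPM in the 3 head with pharynx libraries. In control foregut it had 48.6, 38.4 and 50.6 CPM and in control hindgut 17.5, 9.55 and 14.3 CPM. In BMS493 foregut it had 226, 218 and 325 CPM. All BMS493 libraries were above all control foregut libraries and below all head with pharynx libraries, with replicate 3 the highest. Among the 9 genes at 5 CPM or more in control foregut it had the highest level there, at 10.7% of head with pharynx. It also led per length, with 1154 TPM (the authors' values, which allow for transcript length and library depth) in head with pharynx, 120 TPM in control foregut and 673 TPM in BMS493 foregut.

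The second identifier, XBXT10g018025, had 267, 249 and 242 CPM in head with pharynx and 7.24, 6 and 7.11 CPM in control foregut. Control hindgut libraries had 2.71, 1.11 and 2.10 CPM. The 3 BMS493 libraries were nearly equal, with 176, 177 and 176 CPM, or 69.9% of head with pharynx. For this gene replicate 3 did not differ from replicates 1 and 2, unlike for most of the 81. Per length it was a lesser transcript, with 68.7 TPM in head with pharynx, and ranked 6 of 81 by that measure.

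A few abundant genes carried much of the sum. The first 2 genes held 24.2% of the summed CPM of the 81 genes in BMS493 foregut, the first 5 held 40.3% and the first 10 held 54%. The highest share of the head with pharynx level was that of rank 64, a gene of low level, at 94.5%. It had 6.21, 4.82 and 5.2 CPM in head with pharynx and 5.08, 5.48 and 4.79 CPM in BMS493 foregut, so that these groups overlapped. In control foregut it had 0.417, 0.368 and 0.5 CPM.

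At the other end stood genes that met the limit through replicate 3 alone. Rank 43 had 1.24, 1.06 and 25.5 CPM in BMS493 replicates 1, 2 and 3, against 13.5, 14.0 and 25.8 CPM in head with pharynx. It had no counts in any control foregut, control hindgut or cyclopamine library. In Rfx6 morpholino foregut it had no counts in replicates 1 and 2 and 2.92 CPM in replicate 3. Rank 75 had 0.208, 0.229 and 10.3 CPM in the BMS493 libraries, against 5.94, 5.70 and 9.89 CPM in head with pharynx. It was the 1 gene of 81 that did not pass the filter on low counts, and it was not tested. Both genes were also highest in replicate 3 of head with pharynx, and 3 of the 81 genes were under 25% in both BMS493 replicates 1 and 2.

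The cyclopamine and Rfx6 morpholino libraries had no part in choosing the genes. They do share the control foregut libraries, in which the genes were chosen as low, so a direction against control foregut is partly fixed by the choice. The BMS493 libraries, in which the genes were chosen as high, also shared in the filter on low counts and the estimate of spread. In cyclopamine foregut the genes held 0.0648, 0.063 and 0.0581% of all counts, and in Rfx6 morpholino foregut 0.0601, 0.0585 and 0.1%. The group means were 0.062% ± 0.00347 (SD, n = 3) and 0.073% ± 0.0236 (SD, n = 3), against 0.0171% ± 0.000891 (SD, n = 3) in control foregut. All 6 libraries were above the control foregut libraries, at 0.0164 to 0.0181%, and below the BMS493 libraries. The median gene was at 14.9, 14.6 and 14.2% of its head with pharynx level in the cyclopamine libraries and at 17.7, 17.5 and 32.9% in the Rfx6 morpholino libraries, against 5.21 to 5.87% in control foregut.

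Against control foregut, 54 of the 80 tested genes were higher in cyclopamine foregut (edgeR with quasi-likelihood, n = 3 per group, called where the p adjusted by Benjamini and Hochberg was under 0.05), where 10.2% of all tested genes were. None was lower, where 9.71% of all tested genes were, and none was lower at an unadjusted p under 0.05 or with DESeq2. The median log2 fold change of the tested genes was 1.79, against 0.00 for all tested genes. It was 1.82 with genes without control foregut counts at their lower bound and rank 43 left out. Rank 43 had no counts in either group and so no bound, and the rise came from leaving it out. The lowest log2 fold change among called genes was 0.49, and the median SE was 0.30. Ranks 40, 42 and 55, which had no counts in control foregut, were at least 9.72-, 37.9- and 24.3-fold higher with cyclopamine, against a limit of 3 counts over the control group. The other 26 genes lay between -0.76 and 1.47. Core genes were called in 35 of 43 cases and the other tested genes in 19 of 37. Fitted on the cyclopamine and control foregut libraries alone, 56 of 77 tested genes were higher, where 8.11% of all tested genes were. In that fit 0 were lower, where 8.36% of all tested genes were. With replicates 1 and 2 of each treated group summed, 46 of 81 tested genes were higher, where 3.28% of all tested genes were. With the sums 0 were lower, where 2.56% of all tested genes were.

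In Rfx6 morpholino foregut, 58 of the 80 tested genes were higher than in control foregut, where 8.25% of all tested genes were. None was lower, where 8.99% of all tested genes were, and none was lower at an unadjusted p under 0.05 or with DESeq2. The median log2 fold change was 2.41, also with the genes without control foregut counts at their bound, against 0.00 for all tested genes. Core genes were called in 36 of 43 cases and the other tested genes in 22 of 37. Fitted on the Rfx6 morpholino and control foregut libraries alone, 50 of 78 tested genes were higher, where 4.93% of all tested genes were. In that fit 0 were lower, where 4.81% of all tested genes were. Without replicate 3 of the Rfx6 morpholino group, 56 genes were called higher, all among the 58, where 8.36% of all tested genes were. The median was then 1.93, and 2 genes were called lower, where 9.65% of all tested genes were. With replicates 1 and 2 of each treated group summed, 51 of 81 tested genes were higher, where 3.15% of all tested genes were. With the sums 0 were lower, where 2.95% of all tested genes were.

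XBXT10g003209 had 153, 150 and 110 CPM in the cyclopamine libraries, all above control foregut, at a log2 fold change of 1.54 (SE 0.29, edgeR adjusted p = 0.00585). In the Rfx6 morpholino libraries it had 57.3, 52.4 and 113 CPM, at a log2 fold change of 0.64 against control (SE 0.29, edgeR adjusted p = 0.163). XBXT10g018025 had 63.8, 62.9 and 63.7 CPM with cyclopamine, at a log2 fold change of 3.18 (SE 0.15, edgeR adjusted p = 3.02e-07). It had 68.1, 66.9 and 104 CPM with the Rfx6 morpholino, at a log2 fold change of 3.51 (SE 0.15, edgeR adjusted p = 1.75e-07). Both treated groups lay apart from control foregut and below BMS493 for this gene. Both genes were chosen as low in control foregut, so the direction of these differences is partly fixed by the choice.

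The other 178 genes that met the limits on region but not the limit on BMS493 gave a comparison of values, without a test. Their median in control foregut was 0.44% of the head with pharynx level, against 5.71% for the 81 genes by group means. In the cyclopamine libraries it was 1.56, 1.57 and 1.66%, and in Rfx6 morpholino replicates 1 and 2 it was 0.901 and 0.958%, far under the 81 genes. In Rfx6 morpholino replicate 3 it was 20.6%. In BMS493 replicates 1 and 2 it was 21.4 and 21.5%, and in replicate 3 it was 73.1%, close to the 72.1% of the 81 genes. With the 12 foregut libraries fitted together, fold changes against their lower control foregut level gave another order for BMS493 and the Rfx6 morpholino. The median log2 fold change with BMS493 was 6.22 for the 178 genes and 3.25 for the 81, or 5.47 and 3.19 without replicate 3. With the Rfx6 morpholino it was 3.99 and 2.41, but 0.71 and 1.93 without its replicate 3. With cyclopamine it was 1.18 and 1.79. Many of the 178 genes passed the filter on low counts only in the joint fit. Fitted on the Rfx6 morpholino and control foregut libraries alone, 79 of the 178 were tested. Their median was 2.01, against 2.36 for the tested genes of the 81, so the order for the Rfx6 morpholino was not kept. Fitted on the cyclopamine and control foregut libraries alone, 86 of the 178 were tested, with medians of 1.31 and 1.82. The rule set the groups apart by BMS493 level, so the BMS493 difference between them is given only as a description.

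**Figure D3:**
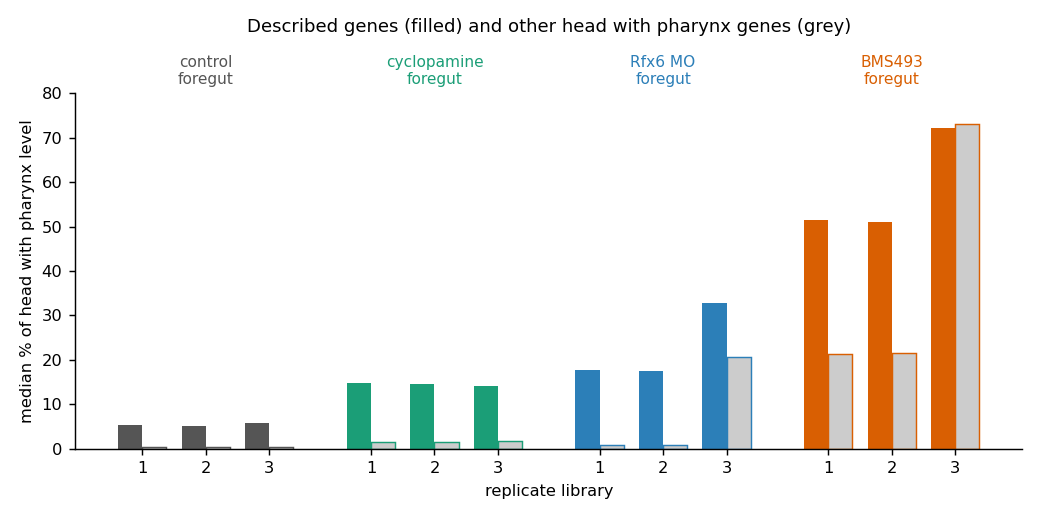
Median level, as a percentage of the head with pharynx mean, in each foregut library, for the 81 genes (filled bars) and for the other 178 genes that met the limits on region (grey bars). The filled bars are the taller in each library but BMS493 replicate 3, where they stand at 72.1 and 73.1%.

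Replicate 3 of the Rfx6 morpholino group stood above replicates 1 and 2 for nearly all of the 81 genes. It was higher than both for 79 of the 81 genes and at least 2 times their mean for 33. The median excess over replicates 1 and 2 was 14.7 percentage points of the head with pharynx level for the 81 genes and 18.7 points for the other 178 genes. In BMS493 replicate 3 these excesses were 16.5 and 52.1 points. In cyclopamine replicate 3 they were -0.33 and -0.02 points, and 25 of the 81 genes were highest in that library. The part of these excesses in the results of the Rfx6 morpholino group was not tested beyond the values without replicate 3.

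The contrast of Rfx6 morpholino with cyclopamine foregut set side by side 2 groups that had no part in choosing the genes, though the control and BMS493 foregut libraries shared in its estimate of spread and its filter on low counts. The Rfx6 group carried DMSO and a morpholino that the cyclopamine labels do not name, so agent and injection cannot be told apart here either. Of the 80 tested genes, 25 were higher in Rfx6 morpholino foregut, where 10.2% of all tested genes were, and 3 were higher in cyclopamine foregut, where 11.1% of all tested genes were (edgeR, adjusted p under 0.05, n = 3 per group). The median log2 fold change was 0.50 against 0.00 for all tested genes, and 63 of the 80 were above 0. Fitted on the 6 libraries of these groups alone, 79 genes were tested, of which 32 were higher in Rfx6 morpholino foregut and 1 in cyclopamine foregut, where 14.8 and 13.6% of all tested genes were. The 25 called genes lay between 0.42 and 4.28, with a median of 1.05 and a median SE of 0.23.

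The balance of directions rested on replicate 3 of the Rfx6 morpholino group. Without it 19 genes were higher, all among the 25, and 14 were higher in cyclopamine foregut, with a median log2 fold change of 0.27, where 10.2 and 12.1% of all tested genes were called in these directions. Without cyclopamine replicate 1, 15 genes were higher in Rfx6 morpholino foregut, where 5.64% of all tested genes were. With the replicate number as a block, 32 genes were higher there and 5 in cyclopamine foregut. Of all tested genes, 11.3 and 12.6% were called in these directions with the block. Leaving out each of the 6 libraries in turn left 15 genes called higher in Rfx6 morpholino foregut every time, 12 of them at least 2-fold. In cyclopamine foregut 1 gene was called higher every time. The share of all tested genes that kept a call every time was not computed, so these counts have no background. With replicates 1 and 2 of each treated group summed into 1 library, 12 genes were higher in Rfx6 morpholino foregut and 0 in cyclopamine. Of all tested genes, 1.77 and 2.1% were called in these directions with the sums. On all libraries, DESeq2 called 36 genes higher in Rfx6 morpholino foregut and 4 in cyclopamine foregut, where 12.7 and 13% of all tested genes were. With edgeR, 38 and 5 genes had an unadjusted p under 0.05 in these directions. The share of all tested genes under that unadjusted limit was not computed.

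**Figure D4:**
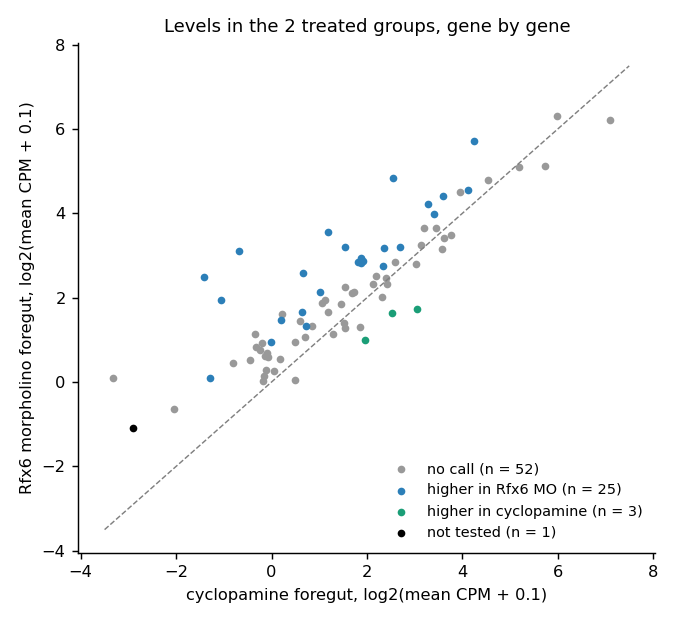
Mean level of each of the 81 genes in Rfx6 morpholino foregut against cyclopamine foregut, both as log2(mean CPM + 0.1), coloured by the edgeR call between the 2 groups (adjusted p under 0.05). The dashed line marks equal levels; 25 genes are called above it and 3 below it, 52 have no call and 1 was not tested.

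The genes singled out next were chosen after their values were seen. Rank 40 had 18.3, 18.7 and 19.7 CPM in head with pharynx and no counts in any control foregut or hindgut library. It had 4.8, 4.40 and 7.33 CPM in Rfx6 morpholino foregut and 0.306, 0.285 and 0.227 CPM in cyclopamine foregut, a log2 difference of 4.28 (SE 0.26, edgeR adjusted p = 5.64e-06). Against the limit of 3 counts over control foregut it was at least 196-fold higher with the Rfx6 morpholino and at least 9.72-fold higher with cyclopamine. Its BMS493 libraries, at 8.90, 8.92 and 12.8 CPM, were above all libraries of both groups.

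Ranks 24, 48, 18 and 7 were also higher with the Rfx6 morpholino than with cyclopamine. Rank 24 had 7.72, 6.85 and 11.1 CPM with the Rfx6 morpholino against 0.493, 0.744 and 0.340 CPM with cyclopamine, a log2 difference of 3.97 (SE 0.35, edgeR adjusted p = 3.20e-05). Rank 7, with 89.4, 97.4 and 101 CPM in head with pharynx, had 24.6, 23.2 and 38.1 CPM against 5.62, 6.33 and 5.33 CPM, a log2 difference of 2.31 (SE 0.26, edgeR adjusted p = 0.000241). For rank 7 cyclopamine was not called against control foregut, which had 2.68, 4.78 and 3.88 CPM (log2 fold change 0.58, SE 0.28, edgeR adjusted p = 0.165). The log2 differences of ranks 48 and 18 were 3.34 and 2.41, and all 4 genes kept their call when any of the 6 libraries was left out.

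The 3 genes higher with cyclopamine were ranks 46, 49 and 41. Rank 46 had 8.71, 8.06 and 7.82 CPM with cyclopamine and 2.45, 2.74 and 4.43 CPM with the Rfx6 morpholino, a log2 difference of -1.37 (SE 0.30, edgeR adjusted p = 0.00741). Its mean cyclopamine level was 59.2% of head with pharynx, and its mean BMS493 level was 62.2%. BMS493 replicate 3 raised the latter mean. The BMS493 libraries were at 53.9, 50.2 and 82.4%, and the cyclopamine libraries at 62.9, 58.3 and 56.5%. Rank 46 kept its call without any single library, and ranks 49 and 41 did not. The call of rank 46 was lost with replicates 1 and 2 summed, where the log2 difference was -1.25. For XBXT10g003209 the same difference was -0.90 (SE 0.28) at an edgeR adjusted p just above 0.05, and it passed without Rfx6 morpholino replicate 3, at -1.30.

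Rank 31 had the highest levels relative to head with pharynx in both treated groups. It had 10.8, 10.6 and 10.1 CPM with cyclopamine (62% of head with pharynx) and 17.4, 15.8 and 13.8 CPM with the Rfx6 morpholino (92%), against 17.6, 15.4 and 18 CPM in head with pharynx and 1.36, 1.24 and 0.731 CPM in control foregut. Its Rfx6 morpholino libraries overlapped with those of head with pharynx and with its BMS493 libraries, at 11.8, 13.0 and 16.2 CPM. Ranks 31 and 37 were the 2 genes for which Rfx6 morpholino replicate 3 was not above both other replicates, and rank 31 was the 1 gene of 81 with an Rfx6 morpholino mean above the BMS493 mean.

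Rank 11 went the other way between libraries. In Rfx6 morpholino replicates 1 and 2 it had 2.43 and 2.47 CPM, under all control foregut libraries at 6.60, 8.97 and 6.73 CPM, and in replicate 3 it had 21.7 CPM, above them. Its log2 fold change against control was 0.15 (SE 0.75, edgeR adjusted p = 0.919) with all libraries and -1.62 without Rfx6 morpholino replicate 3. In cyclopamine foregut it had 12.2, 10.7 and 12.7 CPM, above all control foregut libraries (log2 fold change 0.63, SE 0.74, edgeR adjusted p = 0.594).

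**Figure D5:**
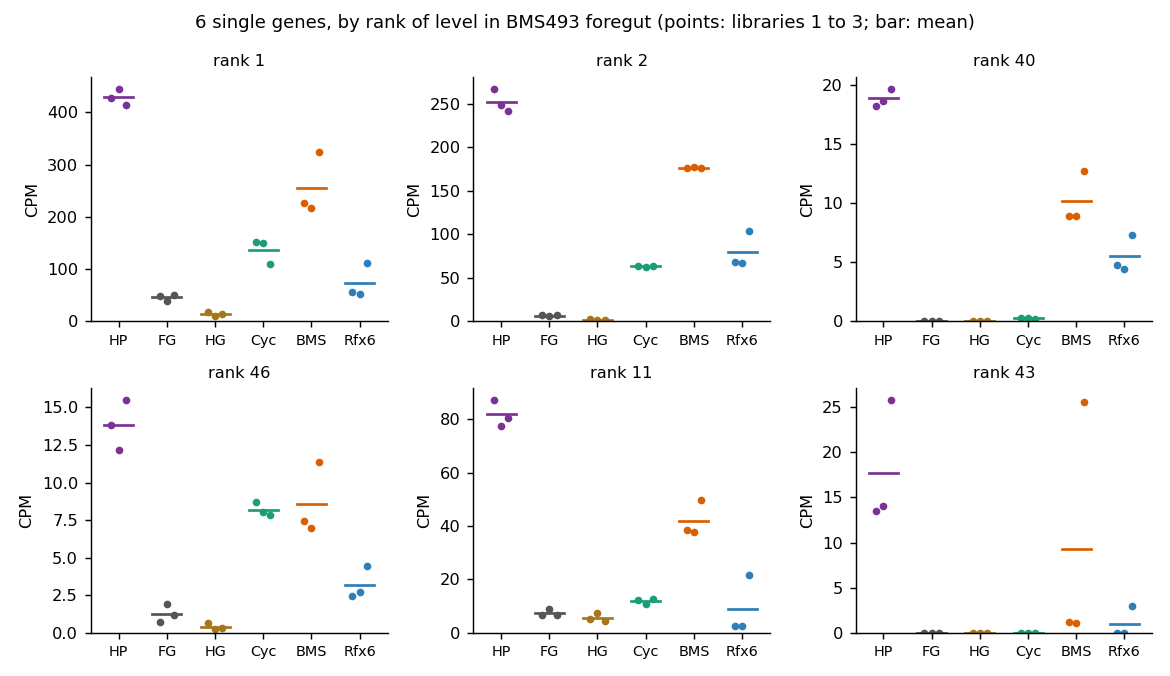
CPM of 6 single genes in the 18 libraries (HP, head with pharynx; FG, control foregut; HG, control hindgut; Cyc, cyclopamine; BMS, BMS493; Rfx6, Rfx6 morpholino), with points for replicates 1 to 3 from left to right and a bar for the mean. Rank 1 is XBXT10g003209 and rank 2 XBXT10g018025; rank 40 is near 0 with cyclopamine, rank 46 is higher with cyclopamine than with the Rfx6 morpholino, and ranks 11 and 43 differ between replicates of a group.

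Core genes and the 38 that depended on BMS493 replicate 3 differed in level outside BMS493 too, given here without a test. By group means, the median core gene was at 22.3% of head with pharynx in cyclopamine foregut and at 27% in Rfx6 morpholino foregut. For the other 38 genes these medians were 10.2 and 17.6%. In control foregut they were 6.40 and 5.57%, and in head with pharynx the median level was 19.1 CPM for core genes and 13.5 CPM for the others.

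Transcript length could be compared only roughly, since libraries differed in depth. Counts per TPM over all 18 libraries grow with length and with the depth of the libraries in which a gene is expressed. The median of the 81 genes was 1.13 times that of all 19675 genes with an estimate, with a range from 0.165 to 8.95, and that of the other 178 genes was 0.653 times. By TPM, head with pharynx levels of the 81 genes ran from 1.09 to 1154 with a median of 11.9, and BMS493 levels from 0.793 to 673 with a median of 7.37. The order of genes per length differed from the order by CPM, as rank 7 by CPM was second in TPM, at 380 TPM in head with pharynx and 199 TPM in BMS493 foregut.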

How the data were processed

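RNA was measured in 18 libraries made with a stranded messenger RNA kit, per the labels' protocols. For each gene the deposited table holds an estimated count in whole numbers. A further deposited table holds TPM, in which the authors allowed for transcript length and library depth. The tools, per the submitters' processing notes, were Bowtie2 and RSEM 1.3.0. The sources used here name no genome build or gene annotation. A row without a gene held 0 counts. Columns were assigned by titles, since the description lines of BMS493 replicates 2 and 3 name replicate 1. How reads were shared between near-identical copies was not examined, so single identifiers may be uncertain.

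CPM used column totals. The 12 foregut libraries were fitted together with edgeR 4.0.16 in R 4.3.3 (quasi-likelihood, robust, TMM scaling, expression filter with a minimum count of 10), with group as the only term and Benjamini-Hochberg adjustment over 18542 genes. A gene was called at an adjusted p under 0.05. The SE printed with a log2 fold change is approximate. It is the absolute log2 fold change divided by the square root of the quasi-likelihood F. DESeq2 1.42.0 was an alternative. Same-numbered cyclopamine and Rfx6 morpholino libraries deviated together weakly (r = 0.114, 0.163 and 0.126 for replicates 1, 2 and 3). Control foregut gave 0.149, -0.139 and -0.0737 with the Rfx6 morpholino group and -0.0303, 0.0584 and 0.11 with cyclopamine. A pairing is thus not established, and the block is given beside that comparison as an alternative. The named pair was set by rule as the highest mean CPM in BMS493 foregut. The members and the tests were chosen with earlier results of these data known. Gene lists by symbol could not be used.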

Additional observations from a re-analysis of the deposited data

How the results depend on the processing

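The number of genes chosen, 81, followed the limits: it was 232 at 4 times and 39 at 16 times the foregut and hindgut level, 147 with a minimum of 1 CPM, and 258 and 6 with a BMS493 share of at least 25 and 75%. It ran from 43 to 163 when 1 of the libraries that chose the genes was left out. For Rfx6 morpholino against cyclopamine, the 25 genes higher and 3 lower became 15 higher at a minimum of 2-fold, where 2.23% of all tested genes were. They became 12 and 0 with replicates 1 and 2 of each treated group summed. With the replicate block, which treats same-numbered libraries as paired, they became 32 and 5. Of all tested genes, 1.77 and 2.1% were called in these directions with the sums, and 11.3 and 12.6% with the block. With the 6 libraries of that comparison alone, 1 gene was lower. Leaving out 1 library gave 15 to 23 higher and 1 to 14 lower, where 5.64 to 10.2% and 6.12 to 12.1% of all tested genes were. Of the 43 genes chosen without BMS493 replicate 3, 16 were higher and 2 lower in this comparison. Of all tested genes, 10.2 and 11.1% were. With cyclopamine against control 35 of the 43 were higher, where 10.2% of all tested genes were. With the Rfx6 morpholino against control 36 were higher, where 8.25% of all tested genes were. By construction, with fewer genes counted, these counts of higher genes lie under the 25, 54 and 58 of the 80 tested genes. The share called higher was larger for the 43 genes in each comparison. Leaving out replicate 3 of both BMS493 and the Rfx6 morpholino group gave 14 lower against cyclopamine and 2 lower against control. Of all tested genes, 13.8 and 11.3% were lower in these comparisons. Against control, single left-out libraries gave 0 to 2 lower, where 4.82 to 11.9% of all tested genes were. These last choices, on BMS493 and both replicates 3, were added after the data were seen. With TMM library sizes the summed level was 0.268% in head with pharynx and 0.00964% in hindgut. The Rfx6 morpholino difference from control of rank 11 turned from 0.15 to -0.23 with the replicate block and, with 1 Rfx6 morpholino library left out, ran from -1.62 (without replicate 3) to 0.63. That of rank 41, 0.42, ran from -0.13 (without replicate 3) to 0.67. Leaving out BMS493 replicate 3 as well also gave -1.62 and -0.13. Where no construction is named, the cause was not tested. Over all alternatives, 96 counts and levels stayed near the main value, and 28 moved from it. Near meant within a fixed fold for counts and within the SD of the libraries for levels, without regard to a threshold. Single values were followed for 14 of the genes described above, less rank 43. All but the named pair were chosen after their values were seen, so they do not stand for the 81. Of the single values, 499 kept their direction and side of the threshold, 13 gained a call, 28 lost it and 5 changed direction. Depth limits genes under about 1 CPM, and 3 libraries per group limit the smallest difference that can be called. Alternatives for the calls of BMS493 against control are not given, because the choice of genes fixes that contrast.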

Other observations

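Ranks 16, 18, 24 and 62 carry identifiers whose running numbers lie within 6 of each other. Of the 81 genes, 6 had another of the 81 within 10 numbers, and of all 259 genes that met the limits on region, 52 had another of the 259. The number to be found among as many identifiers taken at random was not computed, so these counts have no background. The files do not say what the numbering follows.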
